A study of Mus musculus with 21 samples.

Results

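Poorly differentiated adenocarcinoma (PDA) and solid nodular carcinoma (SNC) were compared by bulk RNA sequencing in 8 mouse mammary tumors, 5 PDA and 3 SNC, out of 21 tumors sequenced. The histology of each tumor was read from the pathology code in the study's list of sequenced tumors, since the sample labels give only cohort and genotype. The PDA tumors were N-3, N-6, N-8, N-15 and R-2, and the SNC tumors were N-7, N-9 and R-1. Tumors N-3, N-6, N-7, N-8 and N-9 came from control mice of genotype Gata4(loxP/+);FloxNeoNeuNT;MMTV-CreNLST, N-15 from a FloxNeoNeuNT;MMTV-CreNLST control, and R-1 and R-2 from R26(RhoC/+);FloxNeoNeuNT;MMTV-CreNLST mice. All 8 tumors therefore carry activated Neu (NeuNT) expressed from the endogenous *Erbb2* locus once the MMTV-driven Cre has acted in mammary epithelium, and the 2 RhoC tumors carry in addition a Cre-dependent wildtype mouse RhoC cDNA at Rosa26. Each tumor came from a different female virgin mouse, so a tumor is the replicate. Tumor R-15 (RhoC), coded as SNC or PDA, was left out of every comparison and is described on its own, and 12 tumors had another code or none. The codes of N-8 and R-2 also name a second histology, which for N-8 is SNC and for R-2 adenomyoepithelioma, and were read here as PDA for the sequenced tumor. The age of each animal is not in the sources used here. The paper reports that mice with the RhoC allele formed tumors much earlier in life than controls.

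PDA and SNC are both carcinomas of mammary epithelium. SNC grows as compact nodules of uniform epithelial cells and is the usual histology of mouse tumors driven strongly by ErbB2/Neu, whereas PDA keeps little glandular order. A tumor piece taken for RNA holds carcinoma cells together with fibroblasts that lay down collagen, vessels, and leukocytes such as macrophages, which clear debris and present antigen, and T cells, which read peptides shown on MHC molecules. In bulk RNA, fewer cells of a type and less RNA per cell cannot be told apart, and this holds for every cell type named here.

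Total gene counts ranged from 52420563 to 100741339 in PDA tumors and from 50031738 to 85326903 in SNC tumors, and mean log2 total counts differed by -0.04 (PDA minus SNC, exact permutation p = 0.857, two-sided, 56 labelings). Levels are given as CPM, the count of a gene relative to the library's total after TMM scaling, and fold changes as log2 of PDA over SNC with the standard error (SE) of the edgeR fit. Epithelial markers were high in every tumor on the length-scaled level (the authors' FPKM): *Epcam*, an epithelial adhesion molecule, lay between 146 and 437 FPKM, *Cdh1* (E-cadherin) between 113 and 258 FPKM, and *Krt8*, a luminal keratin, between 89.7 and 794 FPKM. By CPM, *Cdh1* differed between PDA and SNC by -0.19 (SE 0.31, adjusted p = 0.896) and *Epcam* by 0.27 (SE 0.35, adjusted p = 0.870). Basal keratins overlapped between the histologies. *Krt5* was at 0.102, 0.336, 0.0593, 77.9 and 121 CPM in the PDA tumors N-3, N-6, N-8, N-15 and R-2, and at 50.7, 221 and 0.0245 CPM in the SNC tumors N-7, N-9 and R-1. *Krt14* was at 618 and 178 CPM in the SNC controls N-7 and N-9 and at 1.81 to 174 CPM in the PDA controls, but at 0.171 CPM in R-1 and 173 CPM in R-2.

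The genes of the engineered alleles overlapped between the histologies. *Erbb2* was at 1722, 2600, 2793, 60.1 and 261 CPM in N-3, N-6, N-8, N-15 and R-2, and at 612, 812 and 1129 CPM in N-7, N-9 and R-1. The SNC tumors thus lay inside the PDA range (log2 fold change 0.81, SE 1.01, adjusted p = 0.862). The share of NeuNT cDNA reads counted as *Erbb2* was not measured, so these values may not give the level of the activated allele. *Rhoc* reads also include the transgene, yet R-2 had 22.6 CPM, the lowest of the 8, while R-1 had 87.5 CPM, so R-2 is named below by its label. Among controls, *Rhoc* was at 38.5, 147, 177 and 104 CPM in N-3, N-6, N-8 and N-15, each above the SNC tumors N-7 and N-9 at 26.5 and 28.2 CPM (log2 fold change within controls 2.09, adjusted p = 0.335 in edgeR). *Gata4*, of which 1 allele is floxed in 5 of these tumors, had 2518, 2579 and 2560 reads in N-3, N-8 and N-15, 64 reads in R-2, and 0 reads in N-6 and in all 3 SNC tumors.

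Across the 8 tumors, no gene of 20208 tested passed an adjusted p of 0.05 with edgeR's quasi-likelihood test (0% called, smallest adjusted p = 0.400), so no gene below is said to have changed. At an unadjusted p under 0.05 there were 1921 genes (9.51%), of which 1170 were higher in PDA (5.79%) and 751 higher in SNC (3.72%). limma's voom also called none (0%), with 1774 genes at an unadjusted p under 0.05. DESeq2 called 563 of the 19657 genes to which it gave an adjusted p (2.86%), 422 higher in PDA (2.15%) and 141 higher in SNC (0.717%), and 561 of these had an unadjusted p under 0.05 in edgeR. For 696 genes (3.44%) every PDA tumor lay above every SNC tumor, and for 618 genes (3.06%) every SNC tumor lay above every PDA tumor. Of all tested genes, 49.6% had a fold change above 0, with a median of -0.01 on the log2 scale.

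Of the 12 genes with the smallest p among those higher in PDA, 5 are known from leukocytes and 2 encode matrix proteins. *Cd53* (chr3:106759921-106790149), a tetraspanin of the leukocyte surface, was at 104, 67.5, 91.4, 101 and 97.7 CPM in N-3, N-6, N-8, N-15 and R-2, and at 23.9, 22.0 and 36.8 CPM in N-7, N-9 and R-1. The lowest PDA tumor was therefore well above the highest SNC tumor (92.3 ± 14.6 against 27.6 ± 8.08 CPM, SD, n = 5 and 3; log2 fold change 1.74, SE 0.28). *Ctss* (chr3:95526786-95556403), the lysosomal protease cathepsin S that trims the MHC class II invariant chain, was at 229, 350, 537, 507 and 383 CPM in the PDA tumors and 85.2, 52.8 and 102 CPM in the SNC tumors, in the same order. Its groups did not overlap either (log2 fold change 2.32, SE 0.38). *Cybb*, the catalytic subunit of the phagocyte NADPH oxidase, had a log2 fold change of 1.95 (SE 0.36), *Plek*, a protein kinase C substrate of leukocytes and platelets, 1.5 (SE 0.28), and *Marchf1*, a ubiquitin ligase that takes MHC class II off the surface of antigen presenting cells, 2.26 (SE 0.37). All 3 were higher in each PDA tumor than in any SNC tumor.

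Of the matrix genes, *Edil3* (chr13:88821472-89323223), a secreted ligand of integrins, was at 29.7, 46.2, 35.4, 16.5 and 15.3 CPM in N-3, N-6, N-8, N-15 and R-2, and at 2.04, 1.10 and 2.95 CPM in N-7, N-9 and R-1 (log2 fold change 3.81, SE 0.56). *Tgfbi* (chr13:56609523-56639562), a matrix protein named for its induction by TGF-beta, was at 129 ± 32.8 CPM in PDA and 35.5 ± 9.57 CPM in SNC tumors (SD, n = 5 and 3; log2 fold change 1.86, SE 0.31). Both genes kept PDA and SNC tumors apart, with a narrower gap for *Tgfbi* (lowest PDA 94, highest SNC 46.3 CPM). The remaining members were *Celsr1*, a planar cell polarity cadherin (3.30, SE 0.65, as log2 fold change), *Trpv6*, an epithelial calcium channel (3.51, SE 0.56), *Dclk1*, a microtubule-associated kinase (3.01, SE 0.60), *Arhgap26*, a GTPase-activating protein (2.85, SE 0.50), and *Rgs2*, a regulator of G protein signalling (2.38, SE 0.43). All 12 had an adjusted p of 0.400 in edgeR, the same value as the 12 leading genes of SNC, and all 24 were called by DESeq2.

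The 12 leading genes of SNC did not fall into 1 pathway, and most were at low levels. *Aldh4a1* (chr4:139622866-139649690), a mitochondrial enzyme of proline breakdown, was at 14.5, 19.1, 15.4, 16.1 and 18.6 CPM in N-3, N-6, N-8, N-15 and R-2, and at 60.2, 43.1 and 36.2 CPM in N-7, N-9 and R-1 (log2 fold change -1.47, SE 0.25). *Tle6*, a member of the Groucho family of corepressors, was at 9.62 ± 2.43 CPM in PDA and 30.8 ± 5.16 CPM in SNC tumors (log2 fold change -1.68, SE 0.29). In both genes the 5 PDA tumors lay close together and the 3 SNC tumors lay above all of them. *Apoc1* (chr7:19689481-19692660), an apolipoprotein of circulating lipoprotein particles, was at 2.35, 0.504, 0.0356, 0.223 and 0.931 CPM in the PDA tumors and 14.4, 39.3 and 43.0 CPM in the SNC tumors (log2 fold change -5.31, SE 1.05). *Ddhd2*, an intracellular phospholipase, was at 34.8 ± 5.37 CPM in PDA tumors, and at 110, 213 and 58.5 CPM in N-7, N-9 and R-1. *Rims3*, a presynaptic scaffold protein, had a log2 fold change of -1.44 (SE 0.26), *Raver2*, an RNA-binding protein, -3.55 (SE 0.64), *Dnaaf3*, a factor for assembly of ciliary dynein, -2.40 (SE 0.44), and *Lyrm9* -1.71 (SE 0.33). For *Tulp1*, *Rgs11*, *Lgals4* and *Lmntd2* no PDA tumor was above 3.18 CPM, and their log2 fold changes were -2.73, -2.67, -2.71 and -1.86.

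**Figure D1:**
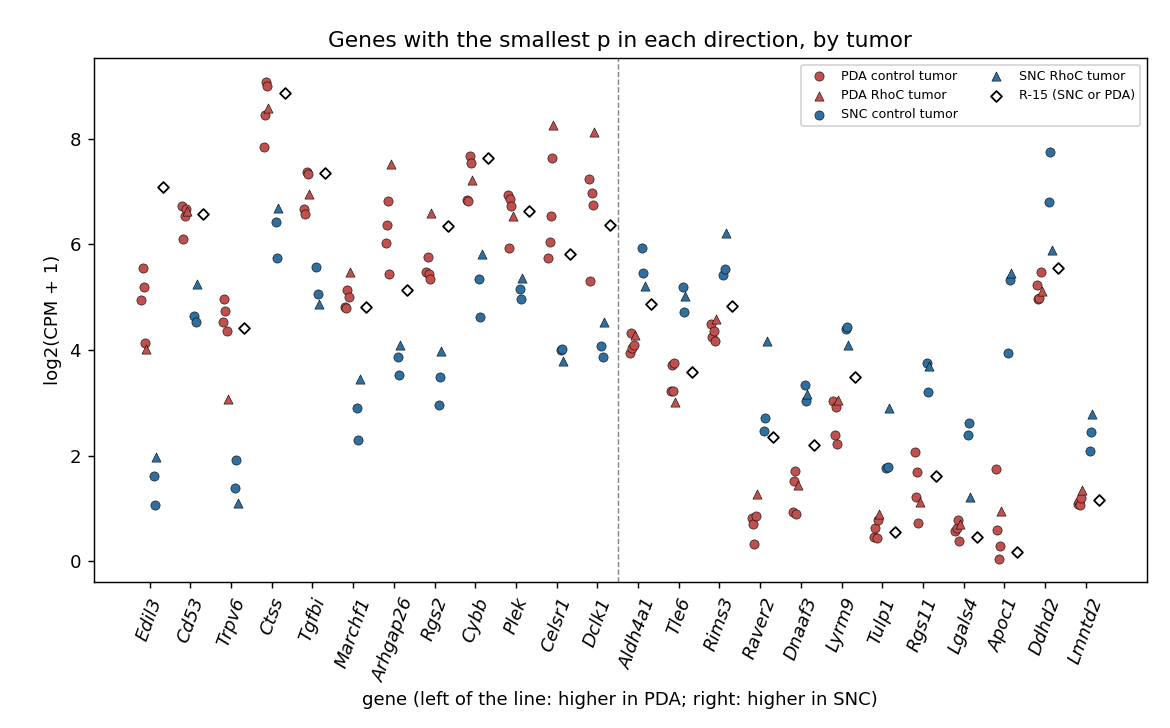
Level of the 24 leading genes in each tumor, as log2(CPM + 1) on the vertical axis. Red marks PDA, blue SNC, circles control tumors, triangles RhoC tumors and open diamonds R-15. In each of the 24 genes the red and blue symbols do not overlap, and the genes were chosen by these values. R-15 is nearer the PDA mean for all 12 genes left of the dashed line and for 8 of the 12 genes right of it.

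All 20 macrophage genes tested had a log2 fold change above 0, 11 were at an unadjusted p under 0.05 and higher in PDA (55%, against 5.79% of all genes), none was in the other direction, and 6 did not overlap (30%, against 3.44%). The median log2 fold change of the list was 1.24, against -0.01 over all tested genes. *Csf1r*, the receptor for the growth factor CSF1 on which macrophages depend, was at 127, 137, 171, 188 and 174 CPM in N-3, N-6, N-8, N-15 and R-2, and at 56.6, 29.4 and 95.3 CPM in N-7, N-9 and R-1. *C1qb*, a chain of complement C1q, was at 168 ± 45.4 CPM in PDA and 59.2 ± 33.5 CPM in SNC tumors (SD, n = 5 and 3). R-1 was the highest SNC tumor for both genes, and neither gene overlapped between the groups (*Csf1r* log2 fold change 1.40, SE 0.37, adjusted p = 0.400). Summed over the list, the PDA tumors ran from 1578 to 2321 CPM and the SNC tumors from 686 to 1150 CPM, without overlap. *Ptprc* (CD45), carried by all leukocytes, was at 134 ± 40.5 CPM in PDA and 42.9 ± 8.73 CPM in SNC tumors.

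T and NK cell genes were at low levels in every tumor. Of 19 tested, 17 were higher in PDA, 8 at an unadjusted p under 0.05 (against 5.79% of all genes), and the median log2 fold change was 2.25. *Cd3e*, a chain of the T cell receptor complex, was at 5.88, 2.94, 8.13, 7.72 and 16.4 CPM in the PDA tumors N-3, N-6, N-8, N-15 and R-2, and at 2.25, 0.545 and 1.57 CPM in N-7, N-9 and R-1 (log2 fold change 2.50, SE 0.69, adjusted p = 0.407). *Cd8b1*, which marks cytotoxic T cells, rested on 29 to 144 reads in PDA and on 15, 2 and 16 reads in SNC tumors. The groups did not overlap for either gene. The summed level was 86.2 CPM in R-2 and 77.9 CPM in N-15, 12.5 to 27.6 CPM in the other PDA tumors, and 5.40 to 19.5 CPM in SNC, so that the sums overlapped. Without R-2 the list's median was 1.43 and 4 genes were at an unadjusted p under 0.05. B and plasma cell genes gave a median of 1.23 over 11 genes (2.37 without N-7), with 4 higher in PDA (*Ms4a1*, *Jchain*, *Ighm* and *Cd79a*) and 1 (*Pax5*) higher in SNC at that p. *Ms4a1* (CD20) had 12 to 49 reads in PDA tumors and 2, 0 and 1 reads in N-7, N-9 and R-1.

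All 16 antigen presentation genes were higher in PDA (median log2 fold change 1.04), and the 6 with an unadjusted p under 0.05 all belong to the MHC class II pathway. *H2-Ab1*, a class II beta chain, was at 87.5, 335, 553, 502 and 1409 CPM in N-3, N-6, N-8, N-15 and R-2, and at 59.2, 30.7 and 101 CPM in N-7, N-9 and R-1 (log2 fold change 3.18, SE 0.86, adjusted p = 0.400). N-3 lay below R-1, so the groups overlapped by 1 tumor. *H2-Eb1* had no overlap (log2 fold change 3.35, SE 0.87). *Cd74*, the invariant chain, and *Ciita*, the class II transactivator, were named after their values were seen, at log2 fold changes of 3.04 (SE 0.84) and 2.41 (SE 0.84). Type I interferon response genes were higher in PDA for 30 of 32 (against 49.6% of all genes), with 4 at an unadjusted p under 0.05 (*Trim30a*, *Cxcl10*, *Ifit2* and *Ifit3*, against 5.79% of all genes) and a median of 1.14, but this rested on N-15: its summed level was 6142 CPM against 603 to 2445 CPM in the other PDA tumors and 665 to 2242 CPM in SNC, and the median without N-15 was 0.12. *Cxcl10*, a chemokine that draws T cells, was at 117 CPM in N-15, 40.6 CPM in R-2, 2.34 to 12 CPM in the other PDA tumors and 0.673 to 5.45 CPM in SNC. Neutrophil genes had a median of 1.11 over 12 genes, none at an unadjusted p under 0.05, and was 0.23 without N-8 and 2.12 without N-9. The antigen presentation median was 1.78 and the interferon median 1.86 without N-7.

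Mesenchymal, EMT, fibroblast and collagen genes were also mostly higher in PDA, and which cells expressed them was not tested. Of 30 mesenchymal and EMT genes, 29 were higher in PDA and 10 were at an unadjusted p under 0.05 (33.3%, against 5.79% of all genes), with a median log2 fold change of 1.15, and of 20 fibroblast and collagen genes 19 were higher and 5 were at that p (25%: *Col6a3*, *Col5a2*, *Fap*, *Thy1* and *Col6a1*), with a median of 1.11. No gene of either list was at that p in the other direction. *Zeb2*, a repressor of E-cadherin that macrophages also express, was at 125 ± 49.6 CPM in PDA and 55.8 ± 12.6 CPM in SNC tumors (log2 fold change 1.16, SE 0.35). *Col6a3* (chr1:90765923-90843971), a chain of microfibrillar collagen VI, was at 710, 381, 449, 522 and 367 CPM in N-3, N-6, N-8, N-15 and R-2, and at 256, 138 and 248 CPM in N-7, N-9 and R-1 (log2 fold change 1.18, SE 0.34, adjusted p = 0.407). *Col5a2*, of fibrillar collagen V, had a log2 fold change of 1.46 (SE 0.47). Neither *Col6a3* nor *Col5a2* overlapped between the groups. The fibroblast markers *Col1a1*, *Pdgfra* and *Dcn* did overlap, with log2 fold changes of 1.24 (SE 0.60), 0.74 (SE 0.64) and 1.26 (SE 0.86). So did the mesenchymal markers *Zeb1* (0.84, SE 0.39) and *Cdh2* (2.06, SE 0.79). The most abundant mesenchymal genes were less even: *Vim*, an intermediate filament of mesenchymal cells, was at 295 to 869 CPM in PDA and at 205, 109 and 558 CPM in N-7, N-9 and R-1, with R-1 inside the PDA range (adjusted p = 0.581). Summed over the mesenchymal list, PDA tumors lay between 3940 and 9671 CPM and SNC tumors between 1242 and 3048 CPM. Leaving out each tumor in turn gave 6 to 16 mesenchymal genes at that p (medians 0.96 to 1.5) and 8 to 14 macrophage genes (medians 1.09 to 1.86). The median of the fibroblast list was 0.71 without N-9 (3 to 11 genes at that p) and 1.73 without N-7.

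Of 30 luminal epithelium genes none was at an unadjusted p under 0.05 in either direction (median 0.19), and the same was true of 39 DNA replication and mitosis genes (median 0.11), 22 p53 targets (median 0.25) and 17 endothelial genes (median 0.16). With each tumor left out in turn these medians ran from 0.005 to 0.37 for luminal, -0.14 to 0.41 for replication, 0.11 to 0.43 for p53 and -0.13 to 0.58 for endothelial genes. Hypoxia and glycolysis genes had a median of -0.08 with 1 of 24 (*Pfkfb3*) higher in PDA at that p, against 5.79% of all genes. Tight junction and polarity genes had a median of 0.15 with 1 of 23 (*Cldn1*) higher in PDA. Among 15 genes of hormone-sensing luminal cells 4 were higher in PDA (*Ly6a*, *Tbx3*, *Cited1* and *Tnfsf11*) and 1 in SNC (*Spdef*) at that p, against 5.79% and 3.72% of all genes, with a median of 0.98 that was 0.23 without R-2. *Spdef*, an ETS factor of secretory epithelium, was at 0.235 to 1.71 CPM in PDA tumors, and at 9.11, 1.16 and 17.6 CPM in N-7, N-9 and R-1 (log2 fold change -3.54, SE 0.84). *Ly6a* (Sca-1) was at 777 CPM in N-15 and at 16.3 to 164 CPM in the other PDA tumors, against 7.02 to 26.3 CPM in SNC. Milk protein genes had a median of 0.81 (0.18 without N-8) and 1 of 18 higher in PDA at that p, *Lpo* (lactoperoxidase), which was at 64.3 CPM in R-2 and at 1.33 to 2.45 CPM in the other PDA tumors.

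**Figure D2:**
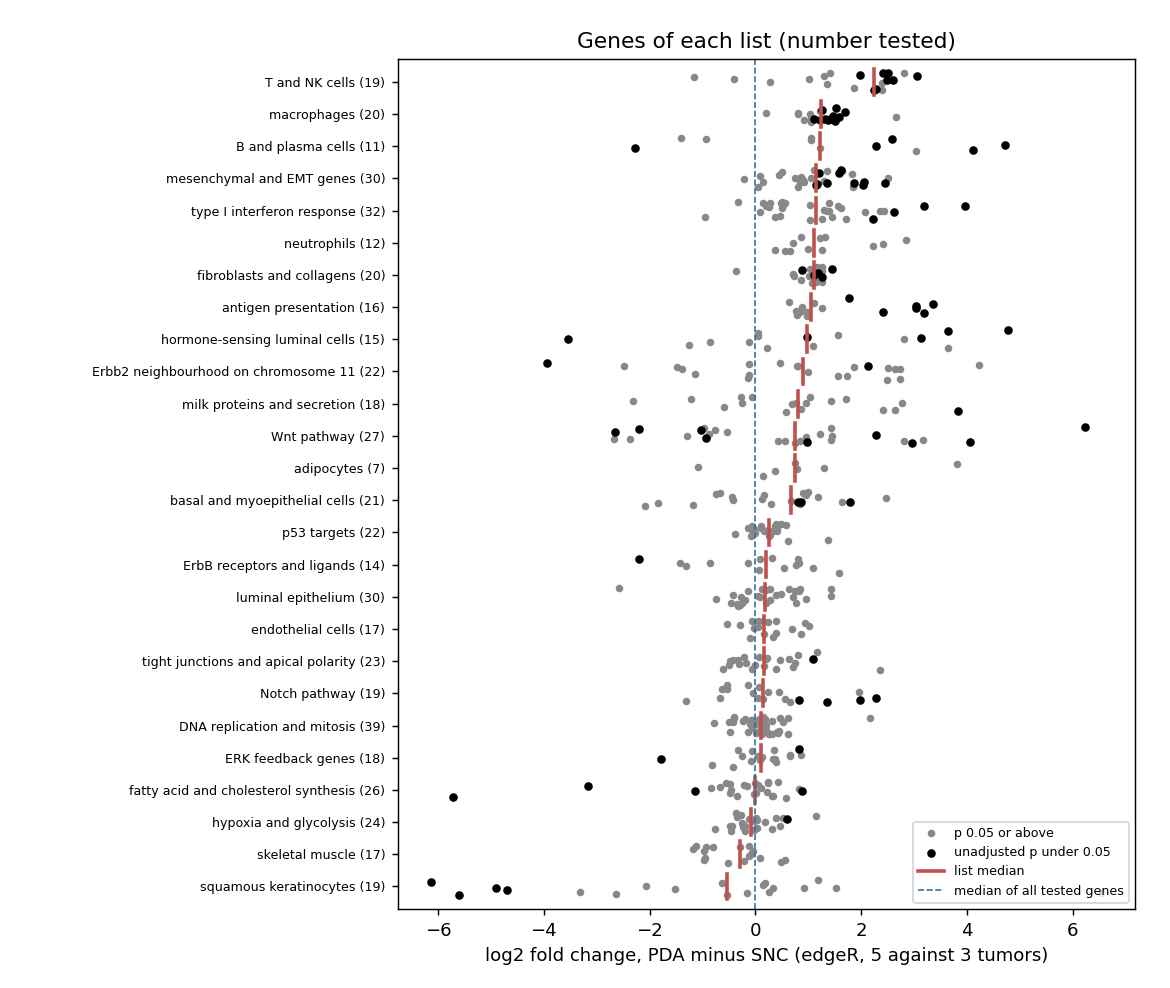
Log2 fold change (PDA minus SNC) of each tested gene of the cell type and pathway lists on the horizontal axis, with the number tested beside the list's name. Black points have an unadjusted p under 0.05, red bars are list medians and the dashed line is the median of all tested genes at -0.01. Macrophage genes all lie to the right of the line around a median of 1.24, T and NK cell genes reach a median of 2.25, and squamous genes spread furthest to the left.

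Of 19 squamous keratinocyte genes, 4 were higher in SNC at an unadjusted p under 0.05 (against 3.72% of all genes) and none was higher in PDA (median -0.53), and the high values were those of N-9 and, for 1 of the 4, also of N-7. *Krt10*, a keratin of differentiating epidermis, was at 45.5 CPM in N-7, 7.77 CPM in N-9 and 0.526 CPM in R-1, and at 0.073 to 0.985 CPM in PDA tumors (log2 fold change -4.90, SE 1.18). *Dsc1*, a desmosomal cadherin of upper epidermis, was at 23.7 CPM in N-9 and at 0.357 CPM or less in the other 7 tumors. *Tgm3*, a transglutaminase of the epidermal envelope, and *Krt1*, the partner of keratin 10, were at 12.4 and 9.24 CPM in N-9 and at 0.465 CPM or less in the other 7. R-1 was therefore near the PDA level for all 4. The list's median was 0.68 without N-9 and -2.41 without N-15.

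Among signalling and metabolic genes, *Jag1*, a Notch ligand, was at 96.4, 69.7, 235, 171 and 209 CPM in N-3, N-6, N-8, N-15 and R-2, and at 48.7, 37.2 and 32.5 CPM in N-7, N-9 and R-1 (log2 fold change 1.98, SE 0.44, adjusted p = 0.400). With the Notch target *Heyl*, the fringe enzyme *Lfng* and *Hey2*, 4 of 19 Notch pathway genes were higher in PDA at an unadjusted p under 0.05 and none was higher in SNC, against 5.79% and 3.72% of all genes (median 0.14, from 0.03 without N-6 to 0.39 without N-7). On the SNC side, *Egf*, the ligand of the EGF receptor, was at 0.365 to 1.49 CPM in PDA tumors and at 5.19, 3.46 and 4.13 CPM in N-7, N-9 and R-1 (log2 fold change -2.20, SE 0.52). *Spred3*, an inhibitor of Ras-ERK signalling, was higher in every SNC tumor (log2 fold change -1.79, SE 0.58). The whole lists gave medians of 0.20 over 14 ErbB receptors and ligands (from 0.03 without N-6 to 0.92 without R-1) and 0.11 over 18 ERK feedback genes (from -0.03 without N-7 to 0.53 without R-1). In these lists 1 gene was higher in PDA (*Spry1*) and 2 in SNC (*Egf* and *Spred3*) at that p.

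Lipid synthesis genes had 3 of 26 higher in SNC and 1 in PDA (*Elovl5*) at an unadjusted p under 0.05, with a median of -0.01. *Thrsp*, a lipogenic factor, was at 0.204, 3.14, 0.712, 1.66 and 8.91 CPM in the PDA tumors and at 324, 109 and 25.6 CPM in N-7, N-9 and R-1 (log2 fold change -5.71, SE 1.19). *Srebf1*, the transcription factor that switches on fatty acid synthesis, was at 200 ± 84.9 CPM in PDA and 442 ± 81.0 CPM in SNC tumors (log2 fold change -1.15, SE 0.36). Both genes kept the groups apart. Wnt pathway genes went both ways, with 5 of 27 higher in PDA (*Lgr5*, *Sp5*, *Lef1*, *Wnt5b* and *Fzd1*) and 4 in SNC (*Rnf43*, *Znrf3*, *Wnt5a* and *Axin2*), against 5.79% and 3.72% of all genes, and a median of 0.76 that was 0.03 without R-2. *Rnf43*, a ubiquitin ligase that removes Frizzled receptors, was at 36.2 ± 9.10 CPM in PDA and 69.2 ± 16.2 CPM in SNC tumors. *Lgr5*, a receptor for R-spondins, had a log2 fold change of 2.95 (SE 0.97) with overlapping groups. Basal and myoepithelial genes had a median of 0.67, which was 0.33 without R-2. Among them the smooth muscle genes *Acta2* (log2 fold change 0.81, SE 0.28) and *Tagln* (0.85, SE 0.31), which fibroblasts and vessels also express, were higher in every PDA tumor than in any SNC tumor.

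Marker genes of carried-in tissue did not divide the tumors by histology. *Acta1*, skeletal muscle actin, was at 140 CPM in N-3 and 180 CPM in R-1, at 11.1 CPM in N-7, and at 0.790 CPM or less in the other 5 tumors. The summed level of 17 muscle genes was 1291 CPM in N-3 and 945 CPM in R-1, with none of the 17 at an unadjusted p under 0.05 and a median of -0.29. Without N-3, 12 of them passed the count filter, 8 were higher in SNC at that p and the median was -4.57, whereas without R-1 it was 2.5. The part of muscle RNA in other results was not tested. Adipocyte genes had 0 of 7 at that p (median 0.74, and 2.5 over the 12 genes that passed the filter without R-1), and *Adipoq*, with 0 to 154 reads, fell below the count filter.

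**Figure D3:**
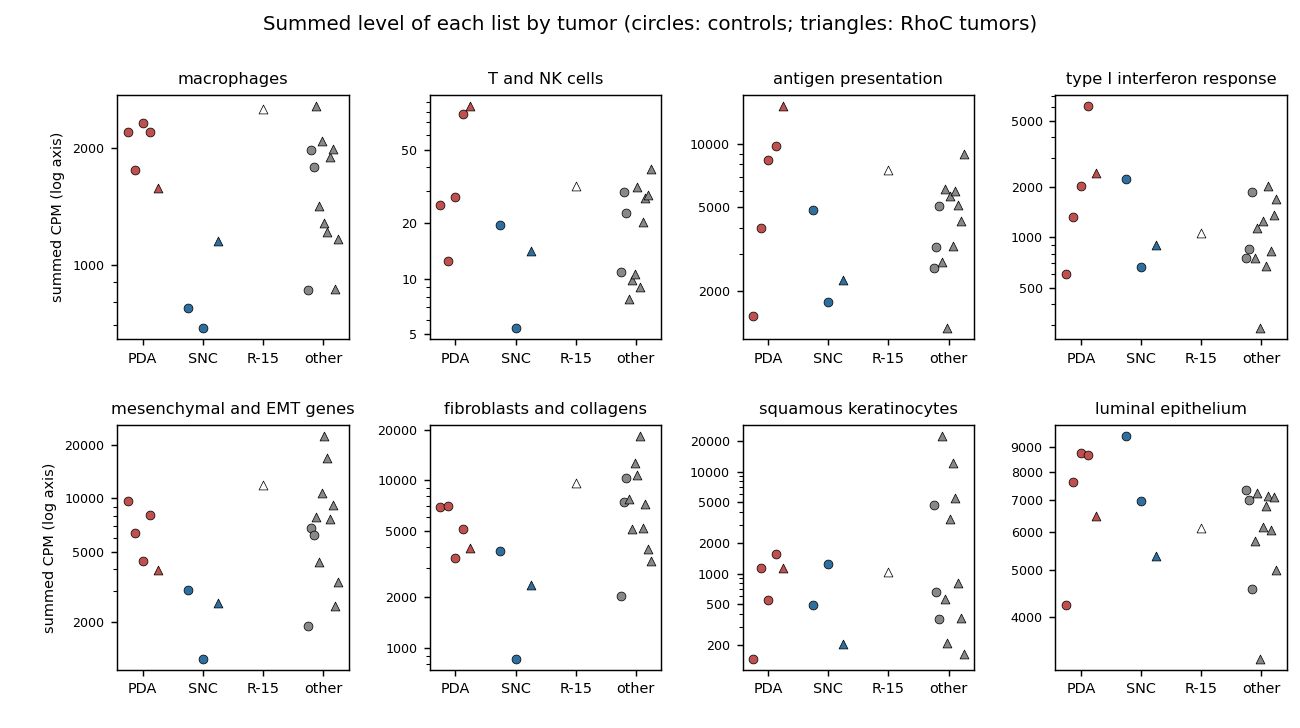
Summed CPM of 8 lists in each tumor, on a log axis. Circles are control tumors, triangles RhoC tumors, and "other" holds the 12 tumors with another code or none. PDA and SNC separate for macrophages (1578 to 2321 against 686 to 1150 CPM) and for mesenchymal genes (3940 to 9671 against 1242 to 3048 CPM), and overlap in the other 6 panels.

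Within control tumors alone, 4 PDA (N-3, N-6, N-8 and N-15) were compared with 2 SNC (N-7 and N-9). edgeR called 2 of 20725 genes (0.00965%), both higher in SNC, and 2282 genes (11%) had an unadjusted p under 0.05, 1313 higher in PDA (6.34%) and 969 higher in SNC (4.68%). DESeq2 called 813 of 20289 genes (4.01%). Macrophage genes were again on the PDA side, with 15 of 20 at an unadjusted p under 0.05 and a median log2 fold change of 1.86, and so were mesenchymal genes with 13 of 30 and a median of 1.27, and antigen presentation genes with 7 of 16 and a median of 0.76. T and NK cell genes had 4 of 19 and a median of 1.80, fibroblast genes 4 of 20 and a median of 1.28, and interferon genes 0 of 32 with a median of 1.07. With the 3 PDA and 2 SNC tumors that carry the floxed *Gata4* allele, which leaves out N-15, the medians were 1.80 for macrophage, 1.27 for mesenchymal, 1.38 for fibroblast, 1.10 for T and NK cell, 0.41 for antigen presentation and -0.14 for interferon genes. These fits share all their tumors with the comparison of 8.

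The 2 genes called within controls lie close together on chromosome 11. *Nt5c3b* (chr11:100422321-100441808), a nucleotidase of the cytosol, was at 399 CPM in N-7 and 409 CPM in N-9, at 12.9 to 20.4 CPM in the 4 PDA controls, and at 32.2 CPM in R-2 and 11 CPM in R-1 (log2 fold change within controls -4.61, SE 0.29, adjusted p = 0.0150 in edgeR). *Eif1* (chr11:100319885-100322096), a translation initiation factor used by every cell, was at 3264 and 3391 CPM in N-7 and N-9, 154 to 231 CPM in the PDA controls, 317 CPM in R-2 and 90.9 CPM in R-1 (log2 fold change -4.08, SE 0.32, adjusted p = 0.0354 in edgeR). Among the 8 tumors the high level was thus that of the SNC controls and not of the SNC tumor R-1, which was the lowest for both genes. Outside the comparison, a tumor of other or no code reached 2651 CPM for *Eif1*, and 1 reached 242 CPM for *Nt5c3b*. The count of calls was 0 when N-3, N-6, N-8, N-15 or N-9 was left out. Without N-7 there were 2 calls, *Klhl11* and *Dnajc7*, which lie next to them and were high in N-9 only. With N-7 or N-9 left out a lone SNC tumor remains, which is assumed to vary like the PDA tumors.

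The genes around this pair were then followed along the chromosome, a choice made after their values were seen. *Erbb2* starts at chr11:98412470, and *Eif1* lies 1907 kb and *Nt5c3b* 2010 kb beyond it. Of 69 genes from *Sp6* (start 97013394) to *Cavin1* (start 100956733) with a median of at least 5 CPM over the 21 tumors, 30 were at least 8-fold above that median in N-8, 20 in N-9, 11 in N-7, 5 in N-6, 4 in N-3, 2 in R-2, 1 in N-15 and 0 in R-1. On the other chromosomes 0.0676% to 0.435% of 10348 such genes were that high in any of the 8 tumors. *Jup* (plakoglobin) was at 8897 CPM in N-7 and 8315 CPM in N-9 and at 207 to 726 CPM in the other 6 compared tumors, and reached 13943 CPM in a tumor of other or no code. *Acly*, the ATP citrate lyase of the lipid synthesis list, was at 10278 CPM in N-9, 600 CPM in N-7 and 146 to 672 CPM in the other 6 compared tumors. Raised genes occurred in both histologies. *Pgap3*, which starts next to *Erbb2* at 98388677, was over 8-fold in N-3, N-6 and N-8 (PDA) and also in N-7 and N-9 (SNC). Beyond this common place, raised genes in N-8 began at 97627389, those in N-3 and N-6 stayed between 98358368 and 98581256, and N-7 and N-9 had in common the stretch that holds *Eif1*, *Jup* and *Nt5c3b*. DNA copy number was not measured in these files, and its part in these levels was not tested. *Acly* was 1 of the 3 lipid synthesis genes higher in SNC, and *Krt10* of the squamous list (start 99385254) and *Krt14* and *Krt17* of the basal list (starts 100203162 and 100256217) lie in this window as well. A list of 22 genes around *Erbb2* had a median of 0.90 between PDA and SNC over the 8 tumors, which was -0.50 without N-8. *Ikzf3* was higher in PDA and *Gsdma* higher in SNC at an unadjusted p under 0.05, near the 5.79% and 3.72% of all genes. These counts depended on the tumors used. With tumors of 1 histology in their code, 0 were higher in PDA and 7 in SNC (1472 of 19542 over all genes, both directions). With the floxed Gata4 controls alone, 6 were higher in PDA and 1 in SNC (2312 of 20515).

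**Figure D4:**
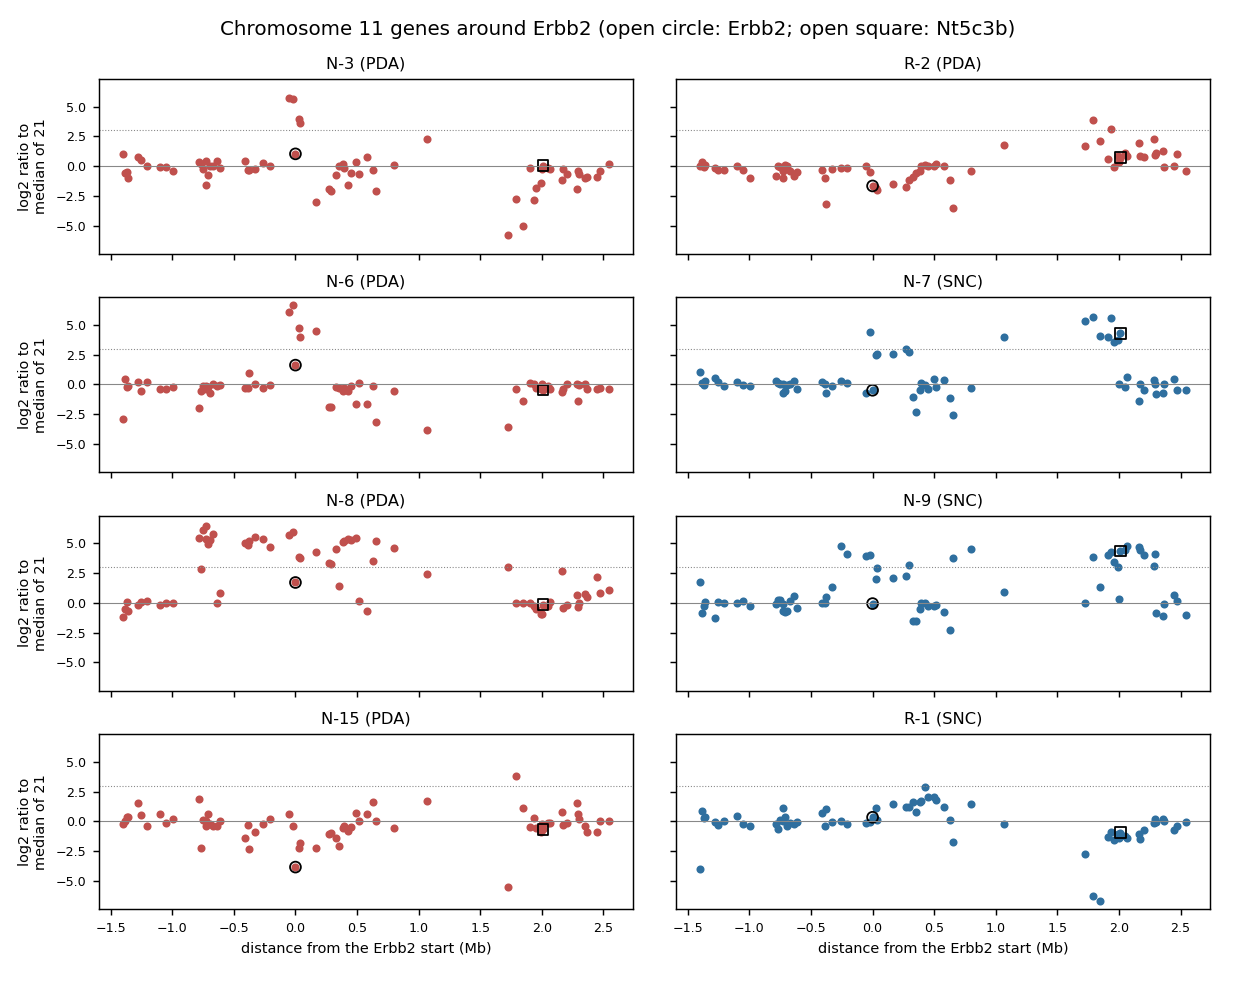
Log2 ratio of each of 69 genes to its median over 21 tumors (vertical axis) against the distance of its start from that of *Erbb2* in Mb (horizontal axis), 1 panel a tumor. Red is PDA and blue SNC, the open circle is *Erbb2*, the open square *Nt5c3b*, and the dotted line marks 8-fold. N-7 and N-9 hold the square above the dotted line, and no other panel does.

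The RhoC tumors R-2 (PDA) and R-1 (SNC) were not used within controls, so their difference is a separate description, with 1 tumor on each side and no test. Over the 20725 genes, R-2 was above R-1 for 45.9% (45.8% of the 20208 genes tested over 8 tumors), and the sign of the control fold change matched that of R-2 minus R-1 for 48.4%. Among the 1313 genes at an unadjusted p under 0.05 and higher in PDA controls, R-2 was above R-1 for 56.6%. Among the 969 higher in SNC controls the sign matched for 44.5%, and for *Nt5c3b* and *Eif1* it did not match.

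Gene groups differed in this respect. All 16 antigen presentation genes were higher in R-2 than in R-1, with a median difference of 2.61 on the log2 scale, as were 18 of 19 T and NK cell genes (2.90), 28 of 32 interferon genes (1.17), 16 of 20 fibroblast genes (0.44) and 22 of 30 mesenchymal genes (0.59). Macrophage genes, all above 0 over the 8 tumors, were split, with 11 of 20 higher in R-2 and a median difference of 0.00. Basal and myoepithelial genes were higher in R-2 for 18 of 21 (2.6), whereas within controls their median was 0.03 and 3 of 21 (*Krt17*, *Jag2* and *Trp63*) were higher in SNC at an unadjusted p under 0.05, against 4.68% of all genes, with *Krt17* in the chromosome 11 window above. Endothelial and muscle genes were all lower in R-2, 17 of 17 each, and hypoxia and glycolysis genes for 21 of 24.

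**Figure D5:**
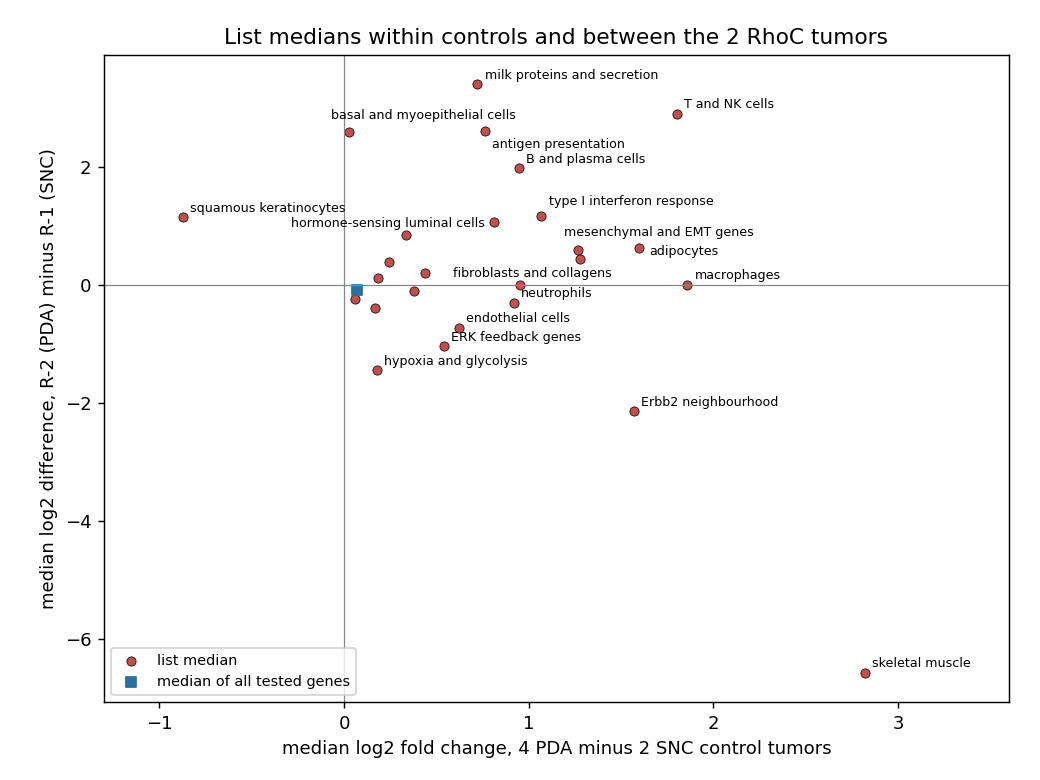
Median log2 fold change of each list between PDA and SNC control tumors (horizontal axis) against its median log2 difference between R-2 and R-1 (vertical axis), with the median of all tested genes as a square. T and NK cell genes are positive on both axes (1.80 and 2.90), macrophage genes only on the horizontal one (1.86 and 0.00), and skeletal muscle genes lie at 2.82 and -6.57.

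Whether the profile divided by histology depended on the genes used. Over the 500 most variable genes, PDA and SNC accounted for 15.6% of the squared distance among the 8 tumors (exact permutation p = 0.339, 56 labelings, smallest possible p = 0.0179), where the median over the labelings was 14.4%. The nearest tumor was of the same histology for 5 of 8 tumors and of the same cohort for 5 of 8. Histology and cohort split the tumors into groups of different sizes, and no chance value was computed for either count. N-3 (PDA) and R-1 (SNC), the tumors with the most muscle RNA, were nearest to each other. By correlation of log2 CPM across genes, N-3 was instead closest to N-7 (0.917) and R-1 to N-8 (0.919). Over all tested genes the share was 18.2% (exact permutation p = 0.0357), and over the 500 genes within controls alone it was 25.3% (exact permutation p = 0.2). With each tumor left out in turn the share over 500 genes ran from 15.2% to 20.7%, with exact permutation p of 0.0476 without R-1, the smallest that 5 against 2 tumors can give, and 0.114 to 0.714 for the other tumors.

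R-15, coded SNC or PDA, was compared with the midpoint between the mean log2 CPM of the histologies, gene by gene. It was nearer PDA for 59.2% of all tested genes, for 81.6% of the 696 genes with every PDA tumor above SNC, and for 64.7% of the 618 genes with every SNC tumor above PDA. It was nearer PDA for 28 of 30 mesenchymal, 17 of 20 fibroblast and 17 of 20 macrophage genes, and nearer SNC for 21 of 32 interferon genes. Counted as an SNC tumor, it took the list medians to 0.42 for mesenchymal, 0.36 for fibroblast and 0.78 for macrophage genes. The genes higher in PDA at an unadjusted p under 0.05 were then 0 of 30 mesenchymal, 0 of 20 fibroblast, 0 of 16 antigen presentation and 4 of 20 macrophage genes. Counted as a PDA tumor, it gave medians of 1.32, 1.25 and 1.33, with 18 of 30 mesenchymal, 10 of 20 fibroblast and 13 of 20 macrophage genes at that p. Over all genes, in both directions, 1227 of 19584 were at that p with R-15 as SNC and 2245 of 20474 with R-15 as PDA. Single genes went both ways: *Edil3* was at 135 CPM, above every compared tumor, and *Apoc1* at 0.126 CPM, in the PDA range, whereas *Aldh4a1* was at 28.2 CPM, between the highest PDA and the lowest SNC tumor.

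The 12 tumors of other or no code gave further values for the leading genes, which were chosen by the 8 compared tumors alone. The genes were picked for a difference between PDA and SNC, which by itself tends to put other tumors outside the SNC range. The same share over all tested genes was not counted, so no conclusion is drawn from the counts below. These 12 tumors are not 12 mice, since R-6 and R-7 share a mouse and R-13, R-14 and R-16 share the mouse of R-15. For *Edil3* and *Cybb* all 12 lay above the highest SNC tumor, and for *Tgfbi* and *Celsr1* 11 did. *Trpv6* was less clear, with 8 above the highest and 3 below the lowest SNC tumor, as was *Cd53*, with 9 above and 2 below. For *Tle6*, *Dnaaf3*, *Lyrm9* and *Apoc1* all 12 lay below the lowest SNC tumor, and for *Aldh4a1* 11 did. On the SNC side *Lgals4* was less clear, with 7 below the lowest SNC tumor. Summed macrophage genes lay above the highest SNC tumor in 10 of the 12, and summed mesenchymal genes also in 10.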

How the data were processed

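RNA was isolated from mammary tumors with an RNeasy kit, and stranded total RNA libraries were made after ribosomal RNA depletion. Per the labels and the study's methods, the authors trimmed reads (Trim Galore 0.5.0), checked them with FastQC 0.11.5, aligned them with STAR 2.6.0c to GRCm38.p6 and deposited raw htseq counts per gene (HTSeq 0.6.1p2). The strand setting and the annotation release are not given in the sources used here, so overlapping and antisense genes may share reads. The authors also deposited FPKM values per tumor, which were used only to compare levels between genes. Tables of the authors' own RhoC against control comparisons (fold changes and p-values) were not used. Gene names and GRCm38 positions come from the deposited table, and other names from a gene name table. Of 49652 rows, 23203 symbols came from the former and 26177 from the latter, and 272 rows had none. Where several IDs shared a symbol, 57 IDs with fewer counts kept their ID as part of the name.

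Genes were filtered with filterByExpr by histology (20208 of 35440 genes with a count in the 8 tumors), scaled by TMM and tested with edgeR 4.0.16 (glmQLFit and glmQLFTest, R 4.3.3), with Benjamini-Hochberg adjustment over all tested genes and a threshold of 0.05. Log2 CPM used a prior count of 2. DESeq2 1.42.0 gave no adjusted p to 551 genes. limma 3.58.1 (voom) was added after the data were seen. The share of squared distance used all 56 exact labelings. Named genes are the 12 with the smallest edgeR p in each direction (mean log2 CPM over 0, no Gm, Rik or pseudogene symbols), the 2 with the smallest p in each of 27 lists (587 entries), the genes of the engineered alleles and defining cell markers. Other genes are named where a count is of 5 or fewer, or as stated. The histologies, lists and tests were chosen with earlier results of these data known, so no list count is independent evidence. Of these lists, 1 is not reported here. No batch is given in the labels, and p-values measure the spread between tumors. The scripts were tested on simulated counts drawn with edgeR's dispersion estimates, where DESeq2 made a larger share of false calls than edgeR. There edgeR missed most of the planted changes and found fewer of them than DESeq2. An absence of calls in edgeR is therefore not evidence of no difference.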

Additional observations from a re-analysis of the deposited data

Results flagged for a closer look

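Of 100 named genes looked at within the 5 PDA tumors, 6 had 1 tumor whose distance from its nearest neighbour exceeded 0.71 of the whole range (Dixon's limit for 5 values), and chance alone gives about 1 in 20. *Lpo* stood out in R-2, the highest at 6.01 log2 CPM against 0.44 to 1.31 (ratio 0.844). Muscle genes stood out in N-3, with *Acta1* at 7.13 log2 CPM against -2.12 to -0.29 (0.801) and *Ckm* at 5.29 against -4.32 to -3.13 (0.877), while the SNC tumor R-1 was as high. *Krt10* was lowest in N-3, at -3.28 against -0.70 to 0.02 (0.783). *Zeb1* was lowest in N-15, at 3.6 against 4.65 to 5.03 (0.730), and *Ptprc* was lowest in N-6, at 6.09 against 7.02 to 7.40 (0.711), still above the SNC tumors.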

How the results depend on the processing

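The count of genes called between PDA and SNC was 0 and was also 0 with no count filter, library size or RLE scaling, the floxed Gata4 controls alone, tumors with 1 histology in their code, all 21 tumors in the fit, R-15 on either side, or voom. It was 563 with DESeq2, 1 with cohort as a term (*Snhg11*, chosen here after its value was seen: log2 fold change -5.75, adjusted p = 0.00113, edgeR) and 2 with control tumors alone. Leaving out each tumor in turn gave 0 to 2 calls, the 2 (*Nt5c3b* and *Eif1*) without R-1. The number at an unadjusted p under 0.05 was 1117 without N-9, against 1921. Within controls the count of 2 was 813 with DESeq2, 30 with no count filter, 5 with library size, and 0 to 2 with each tumor left out. Library size scaling moved the median log2 fold change from -0.01 to -0.12, and changes on that scale are relative to this shift. The share of squared distance was 18.2% over all genes and 15.2% to 20.7% with each tumor left out.

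Among the named genes, the opposite sign was seen in the following cases, each with an adjusted p above 0.05. Counting R-15 as SNC gave log2 fold changes of -0.29 for *Edil3*, -0.82 for *Areg* and -0.078 for *Pdgfra*. With cohort as a term, *Acta1* was at 1.31, *Ckm* at 1.04 and *S100a8* at -0.35. Control tumors alone gave 2.66 for *Acta1* and 2.40 for *Ckm*, and the floxed Gata4 controls 3.07 and 2.81. Tumors with 1 code gave -1.05 for *Cdc6* and -1.01 for *S100a8*. voom gave -0.18 for *Erbb2*, 0.19 for *Ivl* and -0.46 for *S100a8*. Leaving out each tumor gave ranges of -1.08 to 3.16 for *Cdc6*, -7.38 to 2.34 for *Acta1*, -8.11 to 2.08 for *Ckm*, -0.37 to 0.043 for *Cdh1*, -2.24 to 0.65 for *Krt5*, -1.13 to 3.51 for *Ivl* and -1.39 to 1.05 for *S100a8*. The cause was not tested. DESeq2 called 44 of the named genes, against 2.86% of all genes. Most named genes were chosen for a small edgeR p in these same tumors, so this count does not measure agreement between the tools. No paired analysis was possible because each of the 8 compared tumors came from a different mouse, and a number shared by tumors of the 2 cohorts is only a name.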
